A study of Mus musculus with 27 samples.

Results

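The comparison set Mist1+ mouse gastric organoids at passage 15 against Mist1- gastric organoids at passage 5, 6 of the 21 libraries in the deposited table. The 3 libraries of each group were taken by their sample titles. Both groups carry the genotype label WT and were kept in proliferating medium in Matrigel. Per the labels, stomach tissue of adult Mist1CreERT2;RFPLSL mice was dissociated and RFP+ cells were sorted, Mist1CreERT2 being a tamoxifen-inducible Cre under Mist1 control that switches on a red reporter. The Mist1+ organoids are labelled as derived from Mist1+ cells and the others as Mist1- derived, and the protocol text names only RFP+ cells for both. The labels do not say how many mice or cultures stand behind a group, so p-values measure the spread between these libraries, which may be technical. Cell origin and passage number both differ between the groups and cannot be told apart here. Mist1+ organoids at passages 5 and 10 enter below as levels, without a test.

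The Mist1 protein, a bHLH transcription factor whose gene is now named Bhlha15, sets up the secretory machinery of zymogenic cells such as gastric chief cells. The gastric corpus also holds surface mucous (pit) cells, mucous neck cells and acid-secreting parietal cells, and injury can turn chief cells into a mucous type called spasmolytic polypeptide-expressing metaplasia (SPEM). Regional identity of stomach and intestine is held by transcription factors, among them the Irx and Pitx homeobox families, Gata6 and Sox2 in the foregut and Cdx2 in the intestine. Pit cell genes are read below because both states were low in several of them.

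The 3 passage 15 libraries differed from each other more than any other replicates in the table. They held 14076706, 16289749 and 15775450 counts in genes, against 16917658, 17643053 and 16937442 in the Mist1- libraries, and the 21 libraries ranged between 13805585 and 19608956. The biological coefficient of variation was 20.8% within Mist1+ passage 15, 2.19% within Mist1- passage 5 and 1.88% to 3.08% in the other groups. The difference between passage 15 libraries followed exonic length. When tested genes were split into 4 classes of exonic length, the median log2 ratio of replicate 1 over replicate 2 was 0.484 in the shortest class and -0.484 in the longest. Replicate 3 over replicate 2 gave 0.207 and -0.208 in the same classes, and Mist1- replicate 1 over 2 gave -0.003 and 0.003. Replicate 2 lay near the Mist1- mean in both classes, with median log2 ratios of 0.026 and -0.015, so results are also given with replicate 2 as the only passage 15 library. That fit takes its spread from the other groups and assumes that the lone library varies like them. It called more genes over all than the main fit, so its larger list counts below are not read as a result about a list. The widest genes within passage 15 were long: Zbed6 had 12.1, 134.4 and 44.5 CPM, Atp7a had 4.63, 41.2 and 17.5 CPM, and the 8 widest genes had a median exonic length of 10428.5 bases against 4006 over all tested genes. CPM is the count per 1e6 of the TMM-scaled library total, and TMM is a scaling that assumes most genes do not change.

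**Figure D1:**
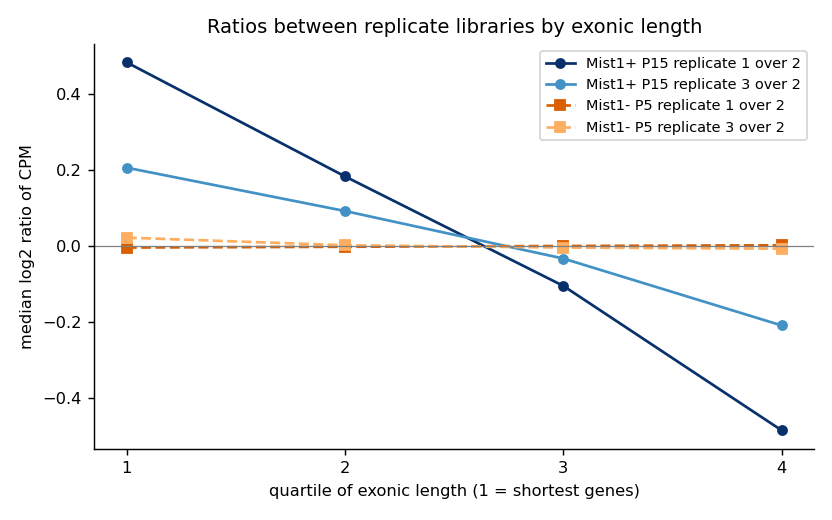
Median log2 ratio of CPM (vertical axis) between replicate libraries in 4 classes of exonic length (horizontal axis, 1 the shortest genes), for Mist1+ passage 15 (blue) and Mist1- passage 5 (orange). The ratio of passage 15 replicate 1 over 2 runs between 0.484 in the shortest and -0.484 in the longest class, and the Mist1- ratios stay near 0.

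Of 13942 genes tested, 1798 were called higher (12.9%) and 1853 lower (13.3%), 26.2% in all, in Mist1+ passage 15 by edgeR's quasi-likelihood test at a Benjamini-Hochberg adjusted p under 0.05, the rule for rose and fell throughout. Fold changes are given as log2 ± standard error, positive where Mist1+ passage 15 was higher, and levels as mean ± SD over 3 libraries. In all 3651 called genes the libraries of the groups did not overlap, a pattern seen in 25.6% of tested genes in the higher and 25.8% in the lower direction. A 2-fold or larger difference was found in 1325 called genes, 584 higher and 741 lower. The shares of 12.9% and 13.3% are the background for every list count below, and short lists can depart from them by few genes. With replicate 2 alone all 3651 kept their direction. That was fixed in advance, since replicate 2 is also in the main fit and the libraries did not overlap. In the shortest length class 14.4% of genes were called higher and 7.39% lower, and in the longest 7.6% and 18.6%. An offset for exonic length, added after seeing the data, kept 3455 (94.6%) called in the same direction. Leaving out 1 library moved the counts over 1.5-fold in several fits. Those 6 fits called 10.9% to 49.4% of the genes they tested, and the ranges of list counts below move with that share. Without passage 15 replicate 2, 3495 genes were called higher and 3550 lower, and without its replicate 3, 818 and 954. The fits without Mist1- replicate 1, 2 or 3 gave 734, 673 and 708 higher and 906, 877 and 903 lower.

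Bhlha15, the gene of Mist1, fell in the organoids labelled Mist1+ at passage 15. It had 3.04, 2.08 and 2.91 CPM in the passage 15 libraries, against 12.9, 8.71 and 9.87 CPM in the Mist1- libraries (log2 fold change -1.97 ± 0.22, adjusted p = 9.29e-04), and the groups did not overlap. On GRCm38 the gene lies on chromosome 5 at 144190286 to 144194441. Mist1+ organoids had 5.6 ± 0.65 and 6.97 ± 0.276 CPM at passages 5 and 10. Gpx4, the selenoenzyme that reduces lipid hydroperoxides, had 197, 105 and 128 CPM in the passage 15 libraries, against 113, 117 and 119 CPM in the Mist1- libraries (log2 fold change 0.30 ± 0.22, adjusted p = 0.321). Its passage 15 libraries spanned the Mist1- ones, and with replicate 2 alone Gpx4 was called lower (log2 -0.15, adjusted p = 0.0161). Without that replicate it was called higher (log2 0.48, adjusted p = 0.043).

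Among the genes with the largest increases were a uroplakin, a BMP ligand, type IV collagens and an intestinal cadherin, each near 0 counts in Mist1- organoids. Upk1b, a urothelial tetraspanin, had 16, 13.6 and 14.9 CPM in the passage 15 libraries, against 0, 0 and 0 CPM in the Mist1- libraries. It was at least 250.0-fold higher when the 3 Mist1- libraries are taken to hold 3 counts together. That is about the highest expected count that an observed 0 allows at 95%. Bmp3, an atypical member of the BMP family, had 7.53, 7.8 and 7.06 CPM in the passage 15 libraries, against 0, 0 and 0 CPM in the Mist1- libraries, at least 127-fold higher. Heph, the membrane ferroxidase hephaestin that passes iron out of enterocytes, had 5.35, 9.41 and 6.81 CPM in the passage 15 libraries, against 0, 0 and 0 CPM in the Mist1- libraries, at least 124-fold higher. No Mist1- library held a count of these 3 genes. Ndn, encoding the imprinted growth regulator necdin, had 26.4, 18.1 and 23.3 CPM in the passage 15 libraries, against 0, 0 and 0.12 CPM in the Mist1- libraries, a ratio of 568 with a counting interval of 157 to 4700 on 2 Mist1- counts. Il5ra, the interleukin 5 receptor alpha chain, had 64.9, 101 and 81.2 CPM in the passage 15 libraries, against 0.419, 0.229 and 0.0598 CPM in the Mist1- libraries (log2 fold change 8.40 ± 0.36, adjusted p = 1.50e-05). All of these libraries lay above every Mist1- library, and Ndn and Il5ra gave log2 8.59 and 8.70 with replicate 2 alone. The type IV collagen chains of basement membrane, Col4a1 and Col4a2, rose together. Col4a2 had 38.4, 52.4 and 46.3 CPM in the passage 15 libraries, against 0.12, 0.115 and 0.239 CPM in the Mist1- libraries (log2 fold change 8.11 ± 0.26, adjusted p = 1.28e-05). Col4a1 had 27.9, 39.8 and 35.7 CPM in the passage 15 libraries, against 0.419, 0.172 and 0.419 CPM in the Mist1- libraries (log2 fold change 6.66 ± 0.28, adjusted p = 1.50e-05). They are head-to-head neighbours on chromosome 8, with Col4a1 on the minus strand at 11198423 to 11312826 and Col4a2 on the plus strand at 11312805 to 11449287 of GRCm38, and the counting strand is not given, so reads in the shared stretch cannot be assigned to one. Rgs17, a regulator of G protein signalling (log2 6.67), and Mgat4c, of the N-acetylglucosaminyltransferase family (log2 6.10), completed the 10 highest, which also held Cdh17, described below. Adjusted p was 6.74e-05 for Rgs17 and 1.28e-05 for Mgat4c.

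With Gm-numbered and Rik gene models left out, the largest decreases were in homeobox genes and a set of surface and signalling genes. Gm10451, outside this ranking, had 1 count at passage 15 and 1398 in Mist1- libraries (ratio 1280, interval 230 to 50800). Pitx1, a homeobox factor best known for hindlimb and pituitary development, had 0, 0 and 0 CPM in the passage 15 libraries, against 39.2, 42.4 and 38.7 CPM in the Mist1- libraries, at least 626-fold lower. Irx5 had 0, 0 and 0 CPM in the passage 15 libraries, against 19.1, 17.9 and 18.3 CPM in the Mist1- libraries, at least 287-fold lower, and Irx2 had 0, 0 and 0 CPM in the passage 15 libraries, against 7.54, 6.82 and 6.7 CPM in the Mist1- libraries, at least 109-fold lower, both being Iroquois homeobox genes of regional patterning. No passage 15 library held a read of these 3 genes, replicate 2 included. On GRCm38, Pitx1 lies on chromosome 13 at 55825051 to 55836192, Irx2 on the same chromosome at 72628820 to 72634198 and Irx5 on chromosome 8 at 92357625 to 92376286. Nrn1, the membrane-anchored neuritin, had 0, 0 and 0 CPM in the passage 15 libraries, against 20.7, 24.8 and 19.4 CPM in the Mist1- libraries, at least 338-fold lower. The zinc finger gene Zfp987 had 0, 0 and 0 CPM in the passage 15 libraries, against 18.2, 15.6 and 15.7 CPM in the Mist1- libraries, at least 257-fold lower. Xlr3a of the X-linked lymphocyte-regulated family also had 0 counts at passage 15 (at least 83.9-fold lower), and near-identical copies make the counts of Xlr3a and Zfp987 uncertain. Ppp1r3a, a glycogen-targeting subunit of protein phosphatase 1, had 1 count in all at passage 15 (ratio 454, interval 81.1 to 18000), and Il1rl2, the interleukin 36 receptor, had 3 counts (ratio 101, interval 34.2 to 491). The non-classical MHC gene H2-Q10 (log2 fold change -7.11 ± 0.25, adjusted p = 1.28e-05), which also has close relatives, and the ectonucleotidase Enpp3 (log2 fold change -6.68 ± 0.27, adjusted p = 1.50e-05) completed the 10 lowest.

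Foregut transcription factors fell more often than they rose, and Sox2, Gata4 and Hnf4a did not pass the test. Of 17 foregut transcription factors tested, 2 rose, 10 fell and 5 did not pass (median log2 fold change -0.96), against a background of 12.9% higher and 13.3% lower. With replicate 2 alone 2 rose and 11 fell, and fits without 1 library gave 0 to 2 called higher and 9 to 11 called lower. Pitx1, Irx5, Irx2 and Gata6, counted among those that fell, passed the count filter through the Mist1- libraries alone and could only be called lower. Gata6, a zinc finger factor of foregut epithelium, had 1.16, 0.357 and 1.24 CPM in the passage 15 libraries, against 38.9, 33.5 and 40.1 CPM in the Mist1- libraries (log2 fold change -5.36 ± 0.30, adjusted p = 4.54e-05). Spdef, an ETS factor of mucous and goblet cells, had 7.74, 5.72 and 4.58 CPM in the passage 15 libraries, against 33.6, 32.4 and 34 CPM in the Mist1- libraries (log2 fold change -2.48 ± 0.18, adjusted p = 1.43e-04). The groups did not overlap for either gene. Reads of Gata6 and of an antisense transcript there cannot be told apart without the counting strand. Mist1+ organoids had Gata6 at 49.3 ± 0.775 and 47 ± 2.5 CPM at passages 5 and 10, so the low Gata6 level stood at passage 15 and at neither earlier passage. Also lower were Pdx1, the factor of antrum, duodenum and pancreas (log2 -1.35), the pioneer factors Foxa3 (log2 -1.21) and Foxa2 (log2 -0.77), Runx1 (log2 -0.96) and Irx3 (log2 -2.74). Irx3 lost its call in 4 of the 6 fits without 1 library, those without passage 15 replicate 3 or any single Mist1- library (adjusted p up to 0.0887). Foxq1, a factor of pit cell mucin expression, rose (log2 0.41), as did Sox21 (log2 0.32). Both calls were lost in the same 4 fits (adjusted p up to 0.11 and 0.193). Sox2 had 26.4, 21.6 and 25.5 CPM in the passage 15 libraries, against 23.8, 22.2 and 24 CPM in the Mist1- libraries (log2 fold change 0.07 ± 0.11, adjusted p = 0.653), Gata4 log2 -0.10 and Hnf4a log2 -0.22, with adjusted p of 0.425 for Gata4 and 0.0901 for Hnf4a. Hnf4a passed without passage 15 replicate 1 or 2 (adjusted p = 0.0418 and 0.0327), and was called lower with replicate 2 alone (log2 -0.16, adjusted p = 5.64e-05).

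A set of intestinal transcripts rose, among them the caudal homeobox factor Cdx2, which is normally silent in stomach. Of 9 intestinal genes tested, 6 rose, 1 fell and 2 did not pass (median 3.37), with replicate 2 alone 8 rose and 1 fell, and fits without 1 library gave 6 called higher and 0 to 1 called lower. Cdx2, Cdh17, Cdhr5 and Tff3 passed the count filter only through the passage 15 libraries, so they could be called higher but not lower. Members low in both groups were not tested, so the counts and the median partly reflect that filter. In bulk RNA, fewer cells of a type and less RNA per cell cannot be told apart, here and for every cell type list below. Cdx2 had 37.9, 27.9 and 30.8 CPM in the passage 15 libraries, against 0.299, 1.09 and 0.179 CPM in the Mist1- libraries (log2 fold change 5.91 ± 0.41, adjusted p = 1.08e-04). Cdh17, the liver-intestine cadherin, had 27.3, 36.9 and 29.3 CPM in the passage 15 libraries, against 0, 0.115 and 0.239 CPM in the Mist1- libraries (log2 fold change 7.96 ± 0.38, adjusted p = 2.35e-05). Cdhr5, a protocadherin of brush border microvilli, had 33, 28.6 and 28.9 CPM in the passage 15 libraries, against 1.14, 0.573 and 0.419 CPM in the Mist1- libraries (log2 fold change 5.40 ± 0.26, adjusted p = 2.54e-05). Passage 15 libraries were higher throughout, and with replicate 2 alone the log2 fold changes were 5.70, 8.20 and 5.32. Lgals4, a lectin of the intestinal surface, had 1254, 814 and 957 CPM in the passage 15 libraries, against 99.3, 95.2 and 98.7 CPM in the Mist1- libraries (log2 fold change 3.37 ± 0.17, adjusted p = 3.34e-05). Tff3, the trefoil peptide of goblet cells, had 21, 7.98 and 13.4 CPM in the passage 15 libraries, against 0.179, 0.458 and 0.538 CPM in the Mist1- libraries (log2 fold change 5.13 ± 0.51, adjusted p = 5.35e-04), and the terminal differentiation keratin Krt20 rose less (log2 1.16). Tff3 varied within passage 15, where replicate 1 was the highest and replicate 2 the lowest library. Olfm4, a crypt stem cell glycoprotein, fell (log2 -1.13) but lost its call in 4 of the 6 fits, without passage 15 replicate 3 or any single Mist1- library (adjusted p up to 0.0974). Villin, Vil1, had log2 0.12 (adjusted p = 0.269) and the goblet cell mucin Muc2 log2 0.29 (adjusted p = 0.651), and Muc2 changed sign without passage 15 replicate 2 (log2 -0.32). With that replicate alone both were called higher, Muc2 at log2 1.03 (adjusted p = 0.00255) and Vil1 at log2 0.13 (adjusted p = 0.00101). Other enterocyte genes were at or near 0: Fabp2 had 15, 3 and 8 counts in the passage 15 libraries, against 1, 0 and 0 in Mist1- libraries. Cdx1 had 1, 1 and 0 counts in the passage 15 libraries and 0 in each Mist1- library, Fabp1 had 3, 0 and 0 counts against 0, and the brush border phosphatase Alpi had 2, 0 and 0 counts against 0, 0 and 1.

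**Figure D2:**
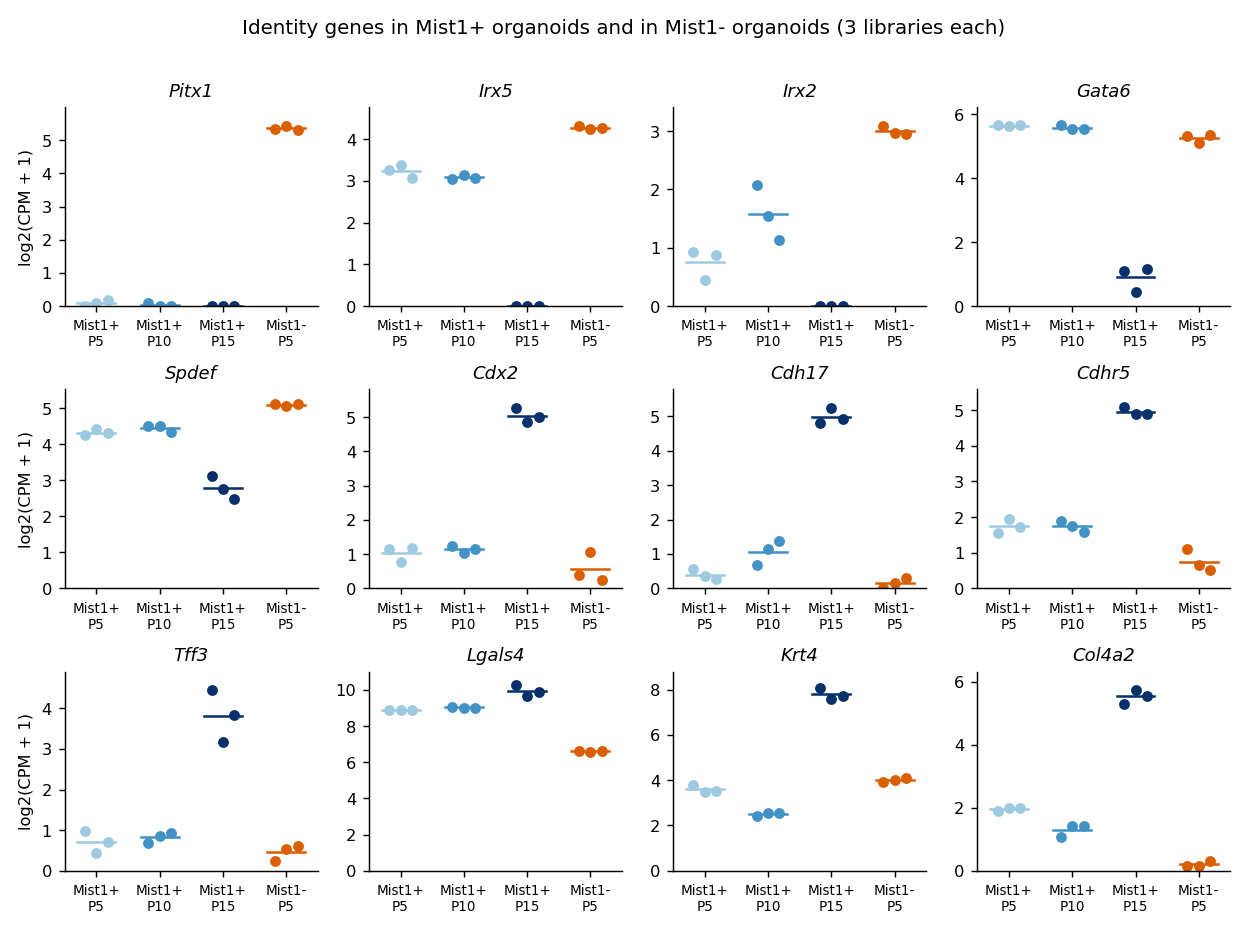
Levels of 12 genes as log2(CPM + 1) in each library of Mist1+ organoids at passages 5, 10 and 15 and of Mist1- organoids at passage 5 (points; bars are means of 3 libraries). Pitx1, Irx5 and Irx2 had no read at passage 15, and Cdx2, Cdh17, Cdhr5 and Tff3 were higher there than in all other libraries shown.

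Hypoxia-inducible and glycolytic transcripts fell nearly as a whole list. These genes are targets of the hypoxia-inducible factors, which bind a short core motif, ACGTG, in their promoters and enhancers. Of 17 tested, 0 rose, 16 fell and 1 did not pass (median -1.47), where the background is 13.3% lower. With replicate 2 alone 0 rose and 17 fell, and fits without 1 library gave 0 called higher and 12 to 17 called lower. RefSeq promoter windows on GRCm38.p6, the 250 bases before the annotated start, were found for 16 listed genes, and 10 of them (62.5%) held ACGTG on either strand, against 4477 of 27025 promoters (16.6%). A match is a description of the letters only. The windows of 4 genes that fell are shown, with ACGTG or its reverse complement in capitals (CACGTG holds both), each written 5′ to 3′ on the gene's own strand, at chr7:138909507-138909756 (minus) for Bnip3, chr12:54203875-54204124 (minus) for Egln3, chr6:82774455-82774704 (minus) for Hk2 and chr7:46845554-46845803 (plus) for Ldha.
Bnip3: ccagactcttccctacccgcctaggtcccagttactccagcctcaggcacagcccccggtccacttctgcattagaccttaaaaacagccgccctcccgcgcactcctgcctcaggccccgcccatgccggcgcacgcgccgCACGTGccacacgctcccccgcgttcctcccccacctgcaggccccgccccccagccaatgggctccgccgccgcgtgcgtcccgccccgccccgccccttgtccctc
Egln3: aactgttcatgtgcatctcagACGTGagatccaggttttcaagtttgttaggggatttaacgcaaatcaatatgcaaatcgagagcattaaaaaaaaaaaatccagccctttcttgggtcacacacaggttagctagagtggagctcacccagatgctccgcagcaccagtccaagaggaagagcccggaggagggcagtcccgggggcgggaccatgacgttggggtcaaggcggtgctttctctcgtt
Hk2: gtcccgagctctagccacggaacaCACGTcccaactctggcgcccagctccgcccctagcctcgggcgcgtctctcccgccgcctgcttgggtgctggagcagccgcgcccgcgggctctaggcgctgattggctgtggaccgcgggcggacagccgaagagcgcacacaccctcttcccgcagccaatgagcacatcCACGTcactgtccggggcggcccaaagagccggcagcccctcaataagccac
Ldha: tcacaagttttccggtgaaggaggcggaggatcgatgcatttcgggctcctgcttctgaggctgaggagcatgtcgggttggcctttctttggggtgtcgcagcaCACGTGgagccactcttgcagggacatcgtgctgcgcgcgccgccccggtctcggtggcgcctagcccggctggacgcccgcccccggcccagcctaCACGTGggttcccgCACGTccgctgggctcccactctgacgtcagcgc
Bnip3, a mitophagy receptor, had 43, 44.1 and 45.3 CPM in the passage 15 libraries, against 236, 233 and 227 CPM in the Mist1- libraries (log2 fold change -2.39 ± 0.09, adjusted p = 1.28e-05). Egln3, an oxygen-sensing prolyl hydroxylase, had 85.7, 81.5 and 83.6 CPM in the passage 15 libraries, against 372, 379 and 377 CPM in the Mist1- libraries (log2 fold change -2.17 ± 0.08, adjusted p = 1.50e-05). Ndrg1, a stress-response gene, had 48, 45.1 and 50.3 CPM in the passage 15 libraries, against 339, 340.3 and 344 CPM in the Mist1- libraries (log2 fold change -2.83 ± 0.09, adjusted p = 1.28e-05). Each of these sets of 3 was tight and the groups were far apart. Vegfa, the vascular growth factor, had 51.6, 58.2 and 60.9 CPM in the passage 15 libraries, against 273, 285 and 287 CPM in the Mist1- libraries (log2 fold change -2.31 ± 0.10, adjusted p = 1.50e-05). The vasodilator peptide Adm (log2 -2.77), the carbonic anhydrase Car9 (log2 -1.47), hexokinase 2, Hk2 (log2 -1.51), and phosphoglycerate kinase, Pgk1 (log2 -1.09), also fell. Lactate dehydrogenase A, Ldha, fell by less (log2 -0.60) and lost its call in 4 of the 6 fits, without passage 15 replicate 3 or any single Mist1- library (adjusted p up to 0.0725). Mist1+ organoids had Ndrg1 at 101 ± 5.1 and 92.2 ± 2.8 CPM at passages 5 and 10, between both groups. Vegfa stood there at 149 ± 1.88 and 115 ± 1.57 CPM at passages 5 and 10.

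Most integrated stress response genes, which answer amino acid shortage and other stresses, fell, and fewer genes of the unfolded protein response of the ER did. Of 16 integrated stress response genes tested, 1 rose, 12 fell and 3 did not pass (median -0.47), with replicate 2 alone 2 rose and 14 fell, and fits without 1 library gave 1 to 2 called higher and 7 to 13 called lower. Chac1, which degrades glutathione, had 2.03, 2.14 and 2.17 CPM in the passage 15 libraries, against 15.3, 16.6 and 15.7 CPM in the Mist1- libraries (log2 fold change -2.90 ± 0.13, adjusted p = 1.50e-05). The pseudokinase Trib3 had 2.39, 1.43 and 1.86 CPM in the passage 15 libraries, against 15.2, 18.6 and 16.9 CPM in the Mist1- libraries (log2 fold change -3.17 ± 0.19, adjusted p = 6.72e-05). No passage 15 library reached a Mist1- library, and log2 fold changes with replicate 2 alone were -2.88 and -3.56. Vldlr, a lipoprotein receptor (log2 -1.44), and the transcription factor Atf3 (log2 -1.06) fell, and Sesn2, also a p53 target, rose (log2 0.85). Of 14 unfolded protein response genes, 0 rose, 6 fell and 8 did not pass (median -0.19), with replicate 2 alone 0 rose and 12 fell, and fits without 1 library gave 0 to 2 called higher and 1 to 9 called lower. Herpud1, a degradation factor of the ER membrane, fell (log2 -0.61), and Xbp1, the secretory stress factor, had log2 -0.26 (adjusted p = 0.0729), passing only without passage 15 replicate 1 among the fits without 1 library (adjusted p = 0.0129). With replicate 2 alone Xbp1 was called lower (log2 -0.37, adjusted p = 2.04e-20). Among the 13 tested immediate early or heat shock transcripts, 2 rose, 6 fell and 5 did not pass (median -0.32), with the phosphatase Dusp1 (log2 -1.29) and Jun (log2 -1.03) lower. Those counts were 0 to 4 called higher and 4 to 8 called lower without 1 library, and with replicate 2 alone 4 rose and 9 fell. Targets of the aryl hydrocarbon receptor that fell were Tiparp (log2 -2.21) and Aldh3a1 (log2 -1.67), 2 of 4 tested, with 0 called higher and 2 to 3 called lower when 1 library was left out.

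Replication genes and p53 targets were both higher at passage 15. Of 20 proliferation genes, 15 rose, 0 fell and 5 did not pass (median 0.40), and with replicate 2 alone 18 rose and 0 fell. The replicative helicase subunit Mcm5 had 154, 141 and 146 CPM in the passage 15 libraries, against 88.4, 93 and 89.2 CPM in the Mist1- libraries (log2 fold change 0.70 ± 0.09, adjusted p = 0.00132), thymidylate synthase, Tyms, log2 0.66, the mitotic kinase Cdk1 log2 0.49 and the replication clamp Pcna log2 0.59. These differences were under 2-fold, and fits without 1 library gave 2 to 16 called higher and 0 to 2 called lower. The higher count was 16 and 15 without passage 15 replicate 1 and 2, and 2 to 5 without passage 15 replicate 3 or any single Mist1- library. Cdk1 and Pcna lost their calls without passage 15 replicate 3 or any single Mist1- library (adjusted p up to 0.083 and 0.0828). Of 18 p53 targets, 13 rose, 0 fell and 5 did not pass (median 0.74), with replicate 2 alone 16 rose and 0 fell, and fits without 1 library gave 7 to 16 called higher and 0 called lower. Ccng1, a cyclin G and direct p53 target, had 930.2, 1107 and 1066 CPM in the passage 15 libraries, against 529, 549.6 and 536 CPM in the Mist1- libraries (log2 fold change 0.94 ± 0.10, adjusted p = 7.50e-04). The stress cytokine Gdf15 had 16.2, 13.7 and 16 CPM in the passage 15 libraries, against 4.67, 6.02 and 4.6 CPM in the Mist1- libraries (log2 fold change 1.58 ± 0.15, adjusted p = 4.70e-04). Both were higher in every passage 15 library, as were the nuclease Aen (log2 0.85), the Akt inhibitor Phlda3 (log2 1.64), the p53 ubiquitin ligase Mdm2 (log2 0.67) and the apoptosis effector Bax (log2 1.09). Cdkn2a, whose products restrain CDK4 and MDM2, had 48.5, 24.8 and 33.6 CPM in the passage 15 libraries, against 14.3, 16.3 and 15.1 CPM in the Mist1- libraries (log2 fold change 1.22 ± 0.23, adjusted p = 0.0101), with log2 0.70 from replicate 2 alone and adjusted p up to 0.0509 without Mist1- replicate 1 or 3. Cdkn2c, another CDK inhibitor, fell (log2 -0.60).

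**Figure D3:**
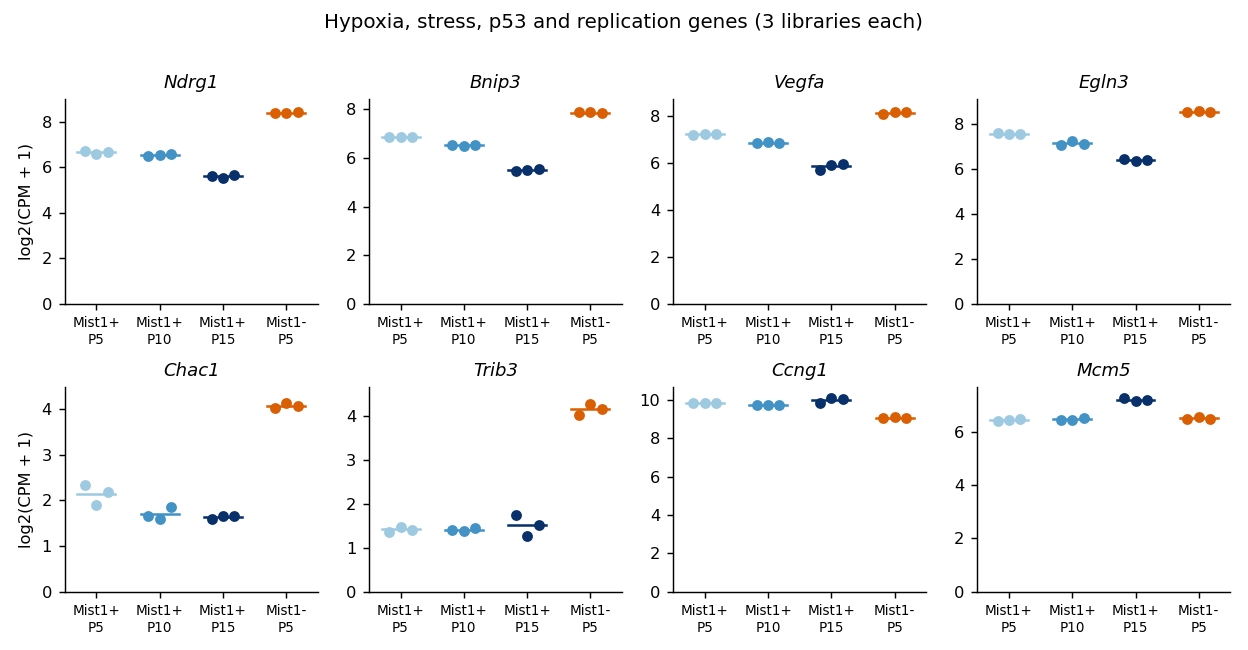
Levels of 8 genes as log2(CPM + 1) in each library of Mist1+ organoids at passages 5, 10 and 15 and of Mist1- organoids at passage 5 (points; bars are means of 3 libraries). Ndrg1, Bnip3, Vegfa and Egln3 were highest in Mist1- organoids and lowest at passage 15, and Ccng1 and Mcm5 were higher at passage 15 than in Mist1- organoids.

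Pit cell genes did not move as 1 group, and both states were below early Mist1+ organoids for the gastrokines. Of 10 pit cell genes, 6 rose, 3 fell and 1 did not pass (median 1.03), with replicate 2 alone 6 rose and 4 fell, and fits without 1 library gave 5 to 6 called higher and 2 to 3 called lower. Gkn1, a gastrokine secreted by surface mucous cells, had 251, 138 and 172 CPM in the passage 15 libraries, against 30.4, 31.4 and 30.7 CPM in the Mist1- libraries (log2 fold change 2.60 ± 0.22, adjusted p = 2.60e-04). Gkn2, its partner gastrokine, had 279, 187 and 228 CPM in the passage 15 libraries, against 54.2, 53.4 and 59.4 CPM in the Mist1- libraries (log2 fold change 2.05 ± 0.16, adjusted p = 1.65e-04). The groups did not overlap for either gene, yet Mist1+ organoids had Gkn1 at 949 ± 23.2 and 1391 ± 29.9 CPM at passages 5 and 10, so the passage 15 level stood above Mist1- and far below the earlier passages. The surface antigen Psca had 156, 99.1 and 116 CPM in the passage 15 libraries, against 16.1, 13.8 and 12.7 CPM in the Mist1- libraries (log2 fold change 3.12 ± 0.20, adjusted p = 6.98e-05). Muc5ac, the gel-forming mucin of pit cells, had 26.1, 37.4 and 23.3 CPM in the passage 15 libraries, against 9.93, 12.8 and 10.6 CPM in the Mist1- libraries (log2 fold change 1.38 ± 0.20, adjusted p = 0.00332), where Mist1+ organoids had 167 ± 1.28 and 287 ± 3.12 CPM at passages 5 and 10. The protease Ctse (log2 0.68) and the calpain Capn8 (log2 1.70) rose, and Capn8 lost its call without passage 15 replicate 3 or any single Mist1- library (adjusted p up to 0.0718). In the other direction, Mucl3, a mucin-like surface protein, had 28.5, 27 and 30.1 CPM in the passage 15 libraries, against 134, 133 and 130.1 CPM in the Mist1- libraries (log2 fold change -2.21 ± 0.09, adjusted p = 1.50e-05). Sult1c2, a gastric sulfotransferase (log2 -1.07), and Vsig2, an immunoglobulin-family surface protein (log2 -0.94), also fell, and Vsig2 reached an adjusted p of 0.0508 without passage 15 replicate 3. Tff1, the pit cell trefoil peptide, had 714, 345 and 439 CPM in the passage 15 libraries, against 422, 418 and 440.4 CPM in the Mist1- libraries (log2 fold change 0.23 ± 0.25, adjusted p = 0.502). Its replicate 1 lay above and its replicate 2 below the Mist1- libraries, and Tff1 was called lower with replicate 2 alone (log2 -0.31, adjusted p = 0.00173) and had log2 -0.12 without replicate 1.

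**Figure D4:**
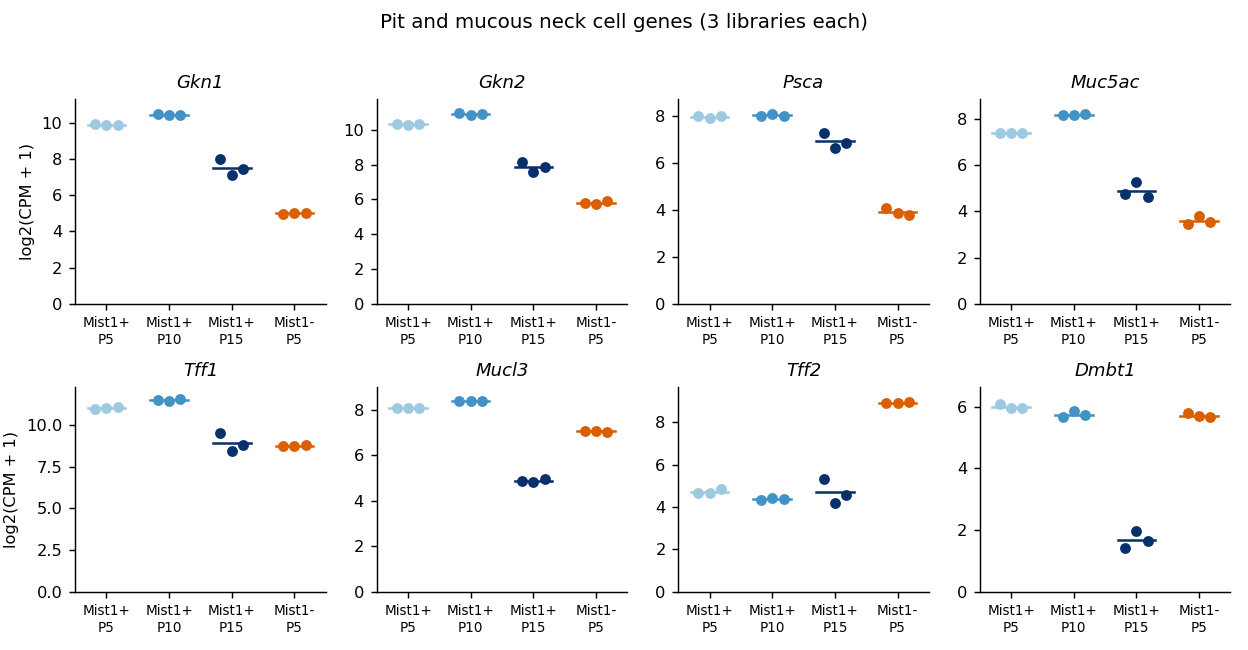
Levels of 8 pit and mucous neck cell genes as log2(CPM + 1) in each library of Mist1+ organoids at passages 5, 10 and 15 and of Mist1- organoids at passage 5 (points; bars are means of 3 libraries). Gkn1, Gkn2 and Muc5ac at passage 15 lay above Mist1- organoids and below Mist1+ passages 5 and 10, and Mucl3, Tff2 and Dmbt1 lay below Mist1- organoids.

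Mucous neck and SPEM genes split, with their trefoil peptide lower and Sox9 and Cftr higher. The background for these and the chief, parietal and tuft cell lists was 12.9% higher and 13.3% lower. Of 10 tested, 4 rose, 2 fell and 4 did not pass (median 0.29), with replicate 2 alone 6 rose and 4 fell, and fits without 1 library gave 4 to 6 called higher and 2 to 4 called lower. Tff2, the spasmolytic polypeptide itself, had 39.4, 17.1 and 22.8 CPM in the passage 15 libraries, against 487, 474 and 497 CPM in the Mist1- libraries (log2 fold change -4.20 ± 0.30, adjusted p = 1.32e-04). Dmbt1, a scavenger receptor secreted onto mucosae, had 1.66, 2.92 and 2.1 CPM in the passage 15 libraries, against 54.4, 50.5 and 49.9 CPM in the Mist1- libraries (log2 fold change -4.51 ± 0.18, adjusted p = 1.50e-05). Every Mist1- library exceeded every passage 15 library for both. Cftr, the chloride channel, had 53.9, 113 and 81.3 CPM in the passage 15 libraries, against 11.8, 9 and 11.7 CPM in the Mist1- libraries (log2 fold change 2.93 ± 0.28, adjusted p = 4.57e-04). The progenitor factor Sox9 (log2 1.64), the gastrokine Gkn3 (log2 2.35) and the glutathione peroxidase Gpx2 (log2 2.32) rose. The mucin Muc6 of this list was too low to be tested, with 7, 9 and 3 counts in the passage 15 libraries, against 15, 5 and 6 in Mist1- libraries. Among chief cell genes, pepsinogen C, Pgc, rose (log2 1.94) and the vesicle GTPase Rab3d fell (log2 -0.53), with Bhlha15 as above. Of 6 chief cell genes 1 rose, 2 fell and 3 did not pass, with replicate 2 alone 1 rose and 5 fell, and fits without 1 library gave 1 called higher and 2 to 5 called lower. Defining markers of mature corpus cells were at or near 0 in both groups: Lipf, Pga5 and Atp4b had 0 counts in all 6 libraries, and intrinsic factor, Cblif, had 0 at passage 15 and 1, 0 and 0 in Mist1- libraries. Of 5 parietal cell genes 1 rose, 1 fell and 3 did not pass, with 1 called higher and 1 to 2 called lower when 1 library was left out. The parietal proton pump chain Atp4a had 3.33, 2.86 and 4.27 CPM in the passage 15 libraries, against 2.39, 2.12 and 3.29 CPM in the Mist1- libraries (adjusted p = 0.223). The intracellular chloride channel Clic6 fell (log2 fold change -5.27 ± 0.26, adjusted p = 2.65e-05) and the sodium-proton exchanger Slc9a4 rose (log2 fold change 0.68 ± 0.12, adjusted p = 0.00609). Of 4 tuft cell genes 1 rose, 2 fell and 1 did not pass (0 to 1 called higher and 1 to 2 called lower without 1 library), with Avil lower (log2 -0.91) and Dclk1 higher (log2 2.93), and Dclk1 lost its call without Mist1- replicate 1 or 2 (adjusted p up to 0.0609). Pou2f3, the factor that specifies tuft cells, had 0 counts in all 6 libraries.

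Secreted defence proteins and several mucins fell, against 12.9% higher and 13.3% lower over all tested genes. Of 10 defence genes, 1 rose, 7 fell and 2 did not pass (median -1.10), with replicate 2 alone 1 rose and 9 fell, and fits without 1 library gave 0 to 1 called higher and 7 to 9 called lower. Lactoferrin, Ltf, had 448, 367 and 384 CPM in the passage 15 libraries, against 2250, 2249 and 2227 CPM in the Mist1- libraries (log2 fold change -2.49 ± 0.11, adjusted p = 1.62e-05). The polymeric immunoglobulin receptor Pigr had 2383, 2563 and 2270 CPM in the passage 15 libraries, against 5063, 5005 and 5077 CPM in the Mist1- libraries (log2 fold change -1.07 ± 0.10, adjusted p = 3.29e-04). Both groups of 3 stood apart, and the peroxide-producing oxidase Duox2 (log2 -1.19) and the siderophore binder Lcn2 (log2 -1.13) fell too. The lectin Reg3g rose (log2 0.80) and lost its call without passage 15 replicate 3 or any single Mist1- library (adjusted p up to 0.0707). Of 7 mucins tested, 1 rose, 4 fell and 2 did not pass (median -0.55), and with replicate 2 alone 2 rose and 4 fell. The membrane mucin Muc4 had 50.5, 159 and 68.5 CPM in the passage 15 libraries, against 538, 526 and 517 CPM in the Mist1- libraries (log2 fold change -2.50 ± 0.40, adjusted p = 0.00494), with replicate 2 the highest of the passage 15 libraries and still below every Mist1- library. Muc5b (log2 -2.13), Muc20 (log2 -1.73) and Muc1 (log2 -0.55) fell, and Muc1 lost its call without passage 15 replicate 3 or Mist1- replicate 1 or 2 (adjusted p up to 0.057). Of 12 NF-kB and inflammatory genes, 1 rose, 7 fell and 4 did not pass (median -0.44), with replicate 2 alone 2 rose and 8 fell, and fits without 1 library gave 1 to 3 called higher and 5 to 8 called lower. The neutrophil chemokine Cxcl2 had 16.5, 12.3 and 16.2 CPM in the passage 15 libraries, against 43, 47.9 and 45.6 CPM in the Mist1- libraries (log2 fold change -1.60 ± 0.14, adjusted p = 2.63e-04), the inhibitor Nfkbia fell (log2 -0.99) and the NF-kB subunit Relb rose (log2 0.85).

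**Figure D5:**
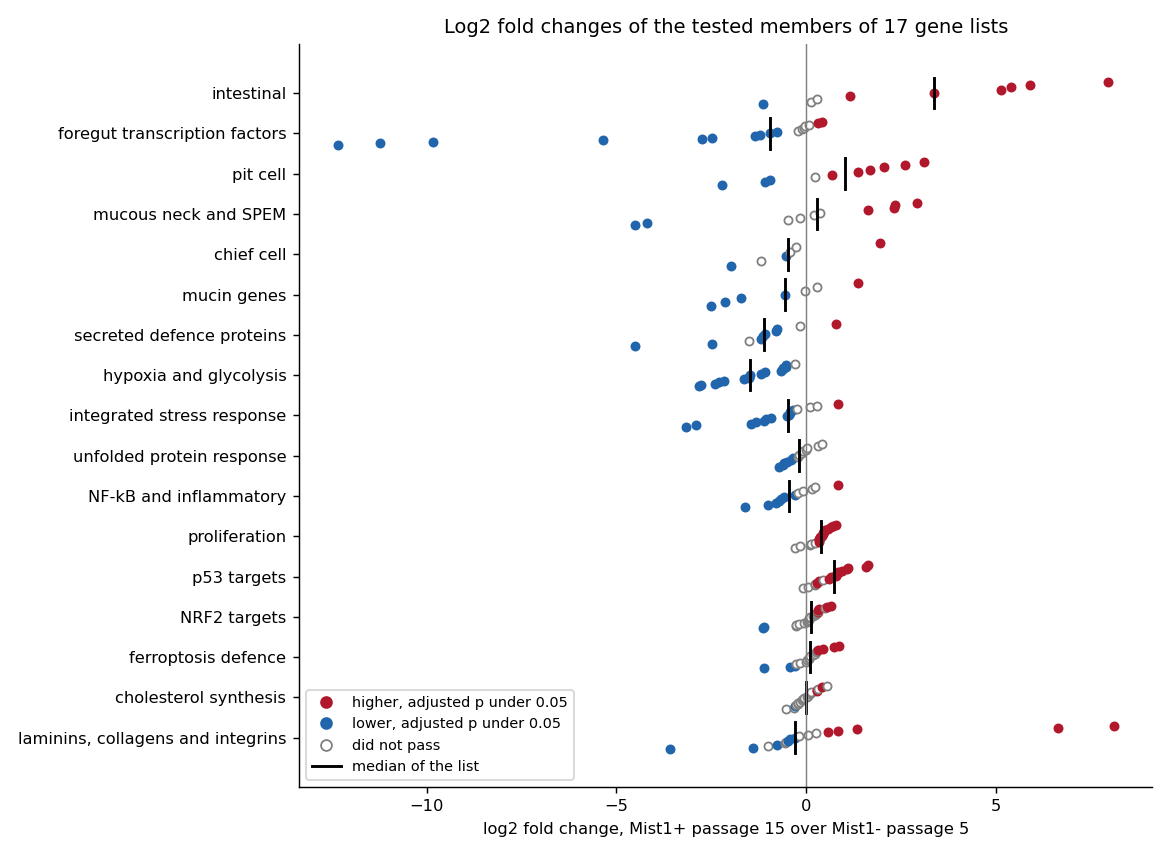
Log2 fold changes of Mist1+ passage 15 over Mist1- passage 5 (horizontal axis) for the tested members of 17 gene lists (points; red higher, blue lower, open not called; black bar, median). The medians run between -1.47 for hypoxia and glycolysis genes and 3.37 for intestinal genes, and the lowest points are foregut transcription factors with no count at passage 15, whose fitted value depends on the prior count.

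Basement membrane and growth factor genes changed in both directions, where 12.9% of all tested genes rose and 13.3% fell. Of 17 laminin, collagen and integrin genes, 5 rose, 6 fell and 6 did not pass (median -0.30), with replicate 2 alone 7 rose and 8 fell, and fits without 1 library gave 3 to 6 called higher and 2 to 9 called lower. Col4a1 and Col4a2 passed the count filter only through the passage 15 libraries and could only be called higher. Beside these type IV collagens, the laminin beta 2 chain Lamb2 rose (log2 0.83). The laminin beta 1 chain Lamb1 had 1.74, 2.14 and 2.48 CPM in the passage 15 libraries, against 25.8, 25.4 and 25.2 CPM in the Mist1- libraries (log2 fold change -3.58 ± 0.15, adjusted p = 1.50e-05), and the collagen-binding integrin Itga2 fell (log2 -1.40). The EGF receptor ligands Ereg, Areg and Btc rose. Ereg had 31.8, 45.4 and 41.8 CPM in the passage 15 libraries, against 3.29, 2.81 and 3.53 CPM in the Mist1- libraries (log2 fold change 3.63 ± 0.18, adjusted p = 2.75e-05), Areg had 122, 97.6 and 108 CPM in the passage 15 libraries, against 29.1, 28.3 and 31 CPM in the Mist1- libraries (log2 fold change 1.88 ± 0.11, adjusted p = 5.66e-05), and Btc reached log2 1.08. Nrg1, a ligand of ERBB3 and ERBB4, fell (log2 -1.54), and of 11 ligands and receptors tested 3 rose, 3 fell and 5 did not pass, while with replicate 2 alone 5 rose and 4 fell, and fits without 1 library gave 3 to 4 called higher and 1 to 5 called lower. Of 9 hedgehog and BMP genes 2 rose, 3 fell and 4 did not pass, and of 7 Wnt targets 3 rose, 1 fell and 3 did not pass. Fits without 1 library gave 1 to 3 called higher and 1 to 4 called lower for hedgehog and BMP genes, and 1 to 3 called higher and 1 called lower for Wnt targets. Ihh, the hedgehog ligand of differentiated surface cells, had 22.6, 16.7 and 21.9 CPM in the passage 15 libraries, against 4.72, 7.11 and 6.04 CPM in the Mist1- libraries (log2 fold change 1.77 ± 0.19, adjusted p = 8.04e-04). Bmp2 had 11, 8.7 and 12.6 CPM in the passage 15 libraries, against 36.7, 40.0 and 40.0 CPM in the Mist1- libraries (log2 fold change -1.86 ± 0.15, adjusted p = 1.97e-04). The Wnt-dependent stem cell receptor Lgr5 had 12.9, 23.6 and 19.3 CPM in the passage 15 libraries, against 63.1, 65.8 and 61.4 CPM in the Mist1- libraries (log2 fold change -1.76 ± 0.20, adjusted p = 0.00103), and the Wnt feedback gene Axin2 rose (log2 0.85), without a call when passage 15 replicate 3 or Mist1- replicate 1 or 2 was left out (adjusted p up to 0.0991).

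Krt4, a keratin of non-keratinizing squamous epithelium, was far higher at passage 15. It had 271, 189.5 and 212 CPM in the passage 15 libraries, against 14.2, 15 and 16 CPM in the Mist1- libraries (log2 fold change 3.90 ± 0.16, adjusted p = 1.50e-05), with log2 3.66 from replicate 2 alone, and Mist1+ organoids had 11.2 ± 1.28 and 4.69 ± 0.262 CPM at passages 5 and 10. The envelope protein involucrin, Ivl, rose (log2 fold change 2.54 ± 0.16, adjusted p = 6.74e-05). The basal squamous markers were low: Krt5 had 6, 9 and 4 counts in the passage 15 libraries, against 2, 13 and 5 in Mist1- libraries, and Trp63 had 0 at passage 15 and 0, 0 and 2 in Mist1- libraries. Among 14 regenerative and YAP-linked genes 6 rose, 3 fell and 5 did not pass (median 0.25), and with replicate 2 alone 7 rose and 3 fell. Fits without 1 library gave 3 to 7 called higher and 3 to 4 called lower, with 3 higher in each fit without passage 15 replicate 3 or a Mist1- library. Ly6a, the Sca-1 surface protein (log2 1.33), and the matricellular Ccn2 (log2 0.94) rose, and its relative Ccn1 (log2 -0.91) and tissue factor, F3 (log2 -1.10), fell, so known YAP targets moved both ways. Simple epithelial genes were abundant in both groups, with Epcam lower (log2 -0.60) and Krt19 higher (log2 0.78), and Krt19 lost its call without passage 15 replicate 3 or any single Mist1- library (adjusted p up to 0.112). For the claudins, as for the lists above, the background was 12.9% higher and 13.3% lower. Of 7 tight junction claudins, 3 rose, 0 fell and 4 did not pass, with replicate 2 alone 3 rose and 1 fell, and fits without 1 library gave 1 to 4 called higher and 0 called lower. Cldn3 had 75.7, 35.1 and 47.2 CPM in the passage 15 libraries, against 21.3, 19.9 and 22.9 CPM in the Mist1- libraries (log2 fold change 1.30 ± 0.26, adjusted p = 0.0126), and Cldn4 (log2 0.71) and Cldn23 (log2 0.69) rose. Cldn3 lost its call when any single Mist1- library was left out (adjusted p up to 0.0617) and Cldn23 also without passage 15 replicate 3 (up to 0.0944). The gastric claudin Cldn18 had 1332 ± 53.7 CPM in passage 15 and 1348 ± 12.1 CPM in Mist1- organoids (adjusted p = 0.894), Cldn2 log2 -0.12 (adjusted p = 0.316) and Cldn7 log2 0.42 (adjusted p = 0.103). Cldn7 passed without passage 15 replicate 2 (adjusted p = 0.00825), and Cldn18 turned sign there (log2 0.01). With replicate 2 alone Cldn18 was called lower (log2 -0.08, adjusted p = 0.00208).

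Redox and lipid lists had shares of called genes above and below the 26.2% over all tested genes. Their counts are not read as results about the lists. Of 22 NRF2 targets, 5 rose, 2 fell and 15 did not pass (median 0.14), with replicate 2 alone 10 rose and 7 fell, and fits without 1 library gave 1 to 10 called higher and 1 to 4 called lower. Malic enzyme, Me1, rose (log2 0.56) and the oxidative stress growth inhibitor Osgin1 fell (log2 -1.15). Of 18 ferroptosis defence genes, 4 rose, 3 fell and 11 did not pass (median 0.10), with replicate 2 alone 7 rose and 7 fell, and fits without 1 library gave 2 to 6 called higher and 0 to 4 called lower. Glutathione synthetase, Gss (log2 0.73), and the acyltransferase Mboat2 (log2 0.87) rose. The cystine transporter Slc7a11 had 247, 561 and 388 CPM in the passage 15 libraries, against 869.6, 864 and 856 CPM in the Mist1- libraries (log2 fold change -1.11 ± 0.27, adjusted p = 0.0227), and it lost its call without passage 15 replicate 3 or any single Mist1- library (adjusted p up to 0.0931). Of 20 cholesterol synthesis genes 3 rose, 1 fell and 16 did not pass (median -0.01), with replicate 2 alone 6 rose and 8 fell, and fits without 1 library gave 0 to 5 called higher and 0 to 5 called lower. In the main fit most fatty acid oxidation and PPAR genes did not pass, with 2 of 11 tested higher, 0 lower and 9 not called (median 0.24). The exonic length offset gave 6 higher and 0 lower (median 0.3), and fits without 1 library 2 to 5 higher and 0 lower. The median with replicate 2 alone was 0.13. The PPAR target Angptl4 had 32.3, 23.3 and 27.6 CPM in the passage 15 libraries, against 4.91, 5.1 and 4.49 CPM in the Mist1- libraries (log2 fold change 2.52 ± 0.16, adjusted p = 6.74e-05), and the acyl-CoA thioesterase Acot1 rose (log2 3.37). Fatty acid synthesis genes had 1 higher, 4 lower and 7 not called of 12 tested (median -0.22). Their median was -0.06 with replicate 2 alone and 0 with the exonic length offset. Fits without 1 library gave 1 to 2 called higher and 2 to 7 called lower. Acacb, which makes the inhibitor of mitochondrial fatty acid import, fell (log2 -1.27), as did the desaturase Fads1 (log2 -0.58).

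Antigen presentation genes went both ways (3 rose, 1 fell and 4 did not pass of 8 tested), with the peptide transporter Tap1 higher (log2 1.01) and the classical MHC gene H2-K1 lower (log2 -1.11). Without 1 library this list had 1 to 5 called higher and 1 called lower. Its background, and that of the interferon and imprinted lists, was 12.9% higher and 13.3% lower. Of 9 interferon response genes, 4 rose, 1 fell and 4 did not pass, with 2 to 4 called higher and 0 to 2 called lower when 1 library was left out. Among 12 imprinted genes 3 rose, 2 fell and 7 did not pass (median 0.02), with 3 to 4 called higher and 0 to 3 called lower when 1 library was left out. The imprinted genes H19 and Ndn passed the count filter only through the passage 15 libraries and could only be called higher. H19 had 0.651, 0.893 and 0.743 CPM in the passage 15 libraries, against 0, 0 and 0 CPM in the Mist1- libraries, at least 13.1-fold higher, and Peg3 fell (log2 -1.49), without a call when passage 15 replicate 3 or any single Mist1- library was left out (adjusted p up to 0.0812). The X-linked homeobox gene Rhox5 had 3.76, 1.67 and 2.54 CPM in the passage 15 libraries, against 0, 0 and 0 CPM in the Mist1- libraries, at least 43.9-fold higher. Markers of other lineages were low. The endothelial gene Pecam1 had 1 count at passage 15 and 75 in Mist1- libraries (ratio 68.9, interval 12 to 2760), and Ptprc, the pan-leukocyte marker, had 1, 0 and 2 counts against 16, 13 and 8. Summed over the immune list, levels were 7.31 to 12.4 CPM at passage 15 and 16.6 to 18.6 CPM in Mist1- libraries, and over the endothelial list 0.289 to 0.477 CPM at passage 15 and 1.44 to 2.57 CPM in Mist1- libraries. The part of these cells in the results was not tested. Fibroblast marker Col1a2 had 0 counts in all 6 libraries. The Y-linked Ddx3y had 41.6, 89.9 and 69.4 CPM in the passage 15 libraries, against 85.8, 86.8 and 90.3 CPM in the Mist1- libraries (log2 fold change -0.39 ± 0.25, adjusted p = 0.265), and it passed only without passage 15 replicate 2 among the fits without 1 library (log2 -0.65, adjusted p = 0.0247).

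The levels of Mist1+ organoids at passages 5 and 10 place these differences along the passage series. For each of the 1325 called genes of 2-fold or more, the Mist1+ passage 5 mean was placed on the log2(CPM + 0.1) line between the Mist1- mean (position 0) and the passage 15 mean (position 1). It lay within 0.25 of the Mist1- mean for 337 genes (25.4%), between for 485 (36.6%), within 0.25 of the passage 15 mean for 248 (18.7%), past passage 15 for 122 (9.21%) and past Mist1- for 133 (10.0%). This is a description without a test, and the positions share the Mist1- and passage 15 libraries. For 227 genes both earlier passages lay near Mist1-, and for 148 both lay near passage 15. Among genes near Mist1- at both earlier passages and higher at passage 15 were Bmp3, Ndn, Cdx2, Tff3, the tetraspanin Tspan12 (log2 5.90) and the galactosyltransferase B4galt4 (log2 5.86). Cdx2 stood at 1.07 ± 0.304 and 1.21 ± 0.141 CPM at passages 5 and 10, against 32.2 ± 5.13 CPM in passage 15 and 0.522 ± 0.494 CPM in Mist1- organoids. Lower at passage 15, and near Mist1- before it, were Irx5, Zfp987, H2-Q10, Enpp3, Il1rl2 and the ubiquitin ligase Trim35 (log2 -5.69). Where passage 15 is at or close to 0 the line is long, so levels well apart from Mist1- count as near. Irx5 stood at 8.47 and 7.53 CPM at passages 5 and 10 against 18.4 CPM in Mist1- organoids, and Zfp987 at 9.24 and 8.88 against 16.5 CPM. Trim35 lay closer, at 73.7 and 72.9 CPM against 90.0 CPM. Enpp3 stood at 85.4 ± 4.34 and 126 ± 2.71 CPM at passages 5 and 10, above its 51.4 ± 3.18 CPM in Mist1- organoids. At passage 15 Enpp3 had 0.868, 0.238 and 0.433 CPM. Other differences from Mist1- organoids were present by passage 5. Pitx1 stood at 0.0704 ± 0.0696 and 0.0203 ± 0.0352 CPM at passages 5 and 10, Tff2 at 25.4 ± 1.99 and 19.8 ± 0.497 CPM at passages 5 and 10 and Lamb1 at 3.45 ± 0.565 and 3.35 ± 0.734 CPM at passages 5 and 10, each near its passage 15 level. Nrn1, Ppp1r3a and the ubiquitin ligase Hectd2 (log2 -4.40) were likewise low at both earlier passages. The sulfotransferase Chst4 (log2 4.77), Shisa2 (log2 4.34) and the transcription cofactor Vgll3 (log2 2.86) were already raised, and Vgll3 stood at 23.1 ± 1.46 and 23.7 ± 0.646 CPM at passages 5 and 10 against 22.1 ± 3.88 CPM in passage 15 and 3.05 ± 0.53 CPM in Mist1- organoids.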

How the data were processed

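RNA-seq libraries of mouse gastric organoids were analysed from the table the authors deposited, which holds raw counts per gene, FPKM and exonic gene size for 21 libraries. The submitters' processing notes name cutadapt 1.9.1, HISAT2 2.2.1, HTSeq 0.6.1 and GRCm38.p5, and strand setting and annotation release are not given in the sources used here. The deposited FPKM values, per the file headers and their agreement with counts per exonic length and library total, were used in alternatives only. Gene positions are from GENCODE M21 on GRCm38 and the promoter sequences from RefSeq on GRCm38.p6.

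Genes with enough counts by filterByExpr (minimum count 10, minimum total 15) were kept, 13942 of 56691, holding 99.862% of counts. A gene could pass through either group alone, and such a gene could be called in that direction only. Libraries were scaled by TMM. Both groups were fitted without covariates by edgeR 4.0.16's quasi-likelihood test with robust moderation, in R 4.3.3, with Benjamini-Hochberg adjustment over all tested genes at 0.05. All adjusted p-values in the text come from edgeR unless another tool is named. The fit was tested on simulated counts with the common spread of each group and no length trend. It recovered 11.9% of 1.5-fold, 55.2% of 2-fold and 95.4% of 4-fold changes, and 0.926% of its calls were false. A gene that did not pass is therefore not shown to be equal between the groups. Named genes included the 10 highest and 10 lowest by fold change. They were taken among called protein-coding genes with non-overlapping libraries and a mean of at least 5 CPM in either group. Genes without a symbol and Gm-numbered or Rik models were left out of that ranking. Leading members of each gene list and genes classed by the Mist1+ passage 5 and 10 levels were also named. Members and lists were chosen with earlier results of these data known. Alternatives, run with DESeq2 1.42.0 and limma 3.58.1 among others, changed scaling, filter, test and libraries. Fits with an exonic length offset, library totals alone and list counts with libraries left out were added after seeing the data. Intervals and limits from counts of 0 cover counting error only (95%, exact). Replicate numbers did not pair the groups, since deviations of same-numbered libraries correlated at -0.035, 0.015 and 0.026.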

Additional observations from a re-analysis of the deposited data

How the results depend on the processing

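Counts of genes called higher and lower, 1798 and 1853, kept within 1.5-fold under median ratio and upper quartile scaling, no low-count filter, an FPKM minimum of 1, DESeq2, limma on log2(FPKM + 1) or log2(FPKM + 0.1), moderation without the robust option and library totals alone. They were 4142 and 3850 with all 21 libraries in the fit, 3025 and 3116 with passage 15 replicate 2 alone, 4864 and 4834 with limma voom quality weights, 237 and 290 in a test against a 2-fold difference, and 2782 (higher) with the length offset. Leaving out 1 library gave 673 to 3495 higher and 877 to 3550 lower. Of the 3651 called genes, those tested in each fit kept their sign, except 4 under the length offset. With libraries left out, the kept sign followed from the calls, since libraries of called genes did not overlap, and is not a check. The cause of the shifts in the counts was not tested.

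Among named genes, those that changed sign had not passed the test. Cldn18 had log2 0.03 under upper quartile scaling, 0.02 in both limma fits on FPKM and with library totals, 0.01 with the length offset, and -0.04 to 0.01 without 1 library. With passage 15 replicate 2 alone, Tff1 had -0.31, Gpx4 -0.15, Ddx3y 0.04 and Sox2 -0.11, and Sox2 had -0.03 with the length offset. Without 1 library Tff1 ranged between -0.12 and 0.44 and Muc2 between -0.32 and 0.67. Of all values of named genes under the alternatives, 3096 kept direction and call, 138 lost the call, 28 gained one and 13 changed sign.

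A fit with the replicate block called 1217 genes higher and 1515 lower, and kept 2618 calls (71.7%); among the genes named in the text, Foxq1, Olfm4 and Sox21 lost theirs. The replicate numbers do not pair the libraries, so this is given for completeness. Totals of the 6 libraries lay between 14076706 and 17643053 counts, and the passage 15 spread (20.8%) limits the differences that could be called.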
